A study of Mus musculus with 8 samples.

Results

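Notch receptors, ligands and target genes were followed across 4 mouse models of endometrial cancer. The members were the 10 genes Notch1, Notch2, Notch3, Notch4, Jag1, Jag2, Dll1, Dll4, Hes1 and Hey1, taken by their symbols from the 24419 genes of the raw count table. All 10 passed the filter on low counts, as did 15875 genes in all. The models, named TPM, TPMCa, TPMR1 and TPK, were grown from uterus organoids of female CAG-Cas9-EGFP mice aged 8 to 10 weeks, in which a ubiquitous promoter drives Cas9. The edited cells were placed in the left uterus of female BALB/cA-nu mice aged 8 weeks, which lack T cells but keep their own blood vessels, fibroblasts and other immune cells. In all 4 models the edits include an sgRNA against Trp53. TPM also carried Myc overexpression from a retroviral vector, TPMCa carried Myc and a Pik3ca E545K cDNA, TPMR1 carried Myc and an sgRNA against Pik3r1, and TPK had no introduced Myc. Pik3ca and Pik3r1 encode the catalytic and a regulatory subunit of PI3K, and TPMCa and TPMR1 are together called the PI3K-edited models. The models carry further edits that are not treated here. Each model had 2 libraries of polyA RNA from separate mice, named replicate 1 and replicate 2. The sample labels speak of organoids cultured from the tumors, whereas the study's methods have tumor tissue collected some 2 months after the cells were transplanted.

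Notch receptors are membrane proteins that are cut when a ligand on a neighboring cell binds them. The cut frees the intracellular part, which joins the DNA-binding protein RBPJ in the nucleus and switches on targets such as Hes1 and Hey1. The Jagged ligands and Notch1 to Notch3 are used by squamous and glandular epithelia, where Notch signaling guides cell fate. Notch4 and Dll4 are best known from the endothelium, where Dll4 restrains sprouting, and Notch3 is also the receptor of pericytes and vascular smooth muscle. In bulk RNA, fewer cells of a type and less RNA per cell cannot be told apart.

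A library held from 15748396 to 26943611 counts, the most in replicate 1 of TPMR1. A floor of 3 counts equals between 0.116 and 0.198 CPM, library-scaled read counts corrected by the TMM factors of edgeR, and covers counting error only. Every member lay above it in every library. The TPMR1 libraries stood far apart: 8 of the 10 members differed over 2-fold between them, as did 37.1% of the genes tested. This was true of 0 members in TPM, 3 in TPMCa and 1 in TPK, with 17%, 24.8% and 19.1% of the genes tested. Replicate 1 of TPMR1 held the lowest level of all 8 libraries in 6 members, Notch1, Jag1, Jag2, Dll1, Hes1 and Hey1, and the highest in Notch4. The share of all genes lowest or highest in this library is not given here, so this is not shown to be particular to the members. Markers of epithelium separated the models. The 7 general epithelial markers (Epcam, Cdh1, Krt7, Krt8, Krt18, Krt19 and Cldn4) summed to between 3284 and 5981 CPM in TPM and TPK and to between 6.54 and 75.4 CPM in TPMCa and TPMR1. The 6 squamous and basal markers (Krt5, Krt14, Krt17, Trp63, Dsg3 and Col17a1) summed to between 4433 and 15289 CPM in TPM and TPK and to between 1.36 and 11.7 CPM in the other models, where up to 4 of them were at 0.

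Among the receptors, Notch3 was the gene with the widest gap between TPM and TPMCa, while Notch4 ran the opposite way to the other receptors. Notch3 (chromosome 17 of GRCm38 from 32120820 to 32166852, minus strand) was at 279.9 and 162 CPM in TPM, 57.9 and 39.2 CPM in TPMCa, 46.5 and 126 CPM in TPMR1, and 170.02 and 159 CPM in TPK. The 4 TPM and TPK libraries lay above all 4 TPMCa and TPMR1 libraries, and replicate 2 of TPMR1 was the nearest to them. The TPM mean of 221 ± 83.6 CPM (SD, n = 2) stood against 48.6 ± 13.2 CPM in TPMCa (SD, n = 2), a log2 fold change of -2.18 (SE, the standard error, 0.531) with an edgeR adjusted p of 0.0785. Against the mean of TPMCa and TPMR1, called the PI3K-edited mean, TPM was 3.41-fold higher in Notch3 (log2 fold change 1.77, SE 0.423, edgeR adjusted p = 0.0503), just short of the threshold of 0.05. DESeq2 gave an adjusted p of 0.00538 for the same contrast, and the adjusted p over all alternatives ran from 0.00538 to 0.347.

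Notch1 (chromosome 2 from 26457903 to 26516663, minus strand), the founding receptor of the family, was at 222 and 160.4 CPM in TPM, 151 and 109.5 CPM in TPMCa, 23.5 and 81.8 CPM in TPMR1, and 161 and 167 CPM in TPK. TPMR1 was the low model here, with both libraries under every other library. Its log2 fold change against TPM was -1.86 (SE 0.564, edgeR adjusted p = 0.111), and leaving out TPMR1 replicate 1 or replicate 2 gave -1.22 or -3.02 (edgeR adjusted p = 0.123 and 0.0100). Notch2 (chromosome 3 from 98013527 to 98150361, plus strand) varied least of the 10 members, at 198 and 131 CPM in TPM, 151 and 93.8 CPM in TPMCa, 105 and 103 CPM in TPMR1, and 132 and 204 CPM in TPK. Its highest library was 2.18 times its lowest, against a median of 3.59 times over 14433 genes with counts in every library. Adjusted p values for Notch2 lay at 0.246 or above in all 6 comparisons (edgeR).

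Notch4 (chromosome 17 from 34564268 to 34588503, plus strand) was at 26.2 and 18.5 CPM in TPM, 35.1 and 74.8 CPM in TPMCa, 110.5 and 104 CPM in TPMR1, and 27.8 and 10.3 CPM in TPK. All 4 TPMCa and TPMR1 libraries lay above all 4 TPM and TPK libraries, and the TPMR1 replicates, so unlike each other in most members, were alike here. TPK was 4.04-fold lower than the PI3K-edited mean (log2 fold change -2.01, SE 0.522, edgeR adjusted p = 0.0481). The corresponding difference of TPM missed the threshold, with a log2 fold change of -1.78 and an adjusted p of 0.0859 from edgeR. Between TPMR1 and TPM the log2 fold change of Notch4 was 2.27 (SE 0.569, edgeR adjusted p = 0.0723), and it was 2.23 and 2.31 without TPMR1 replicate 1 and replicate 2.

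**Figure D1:**
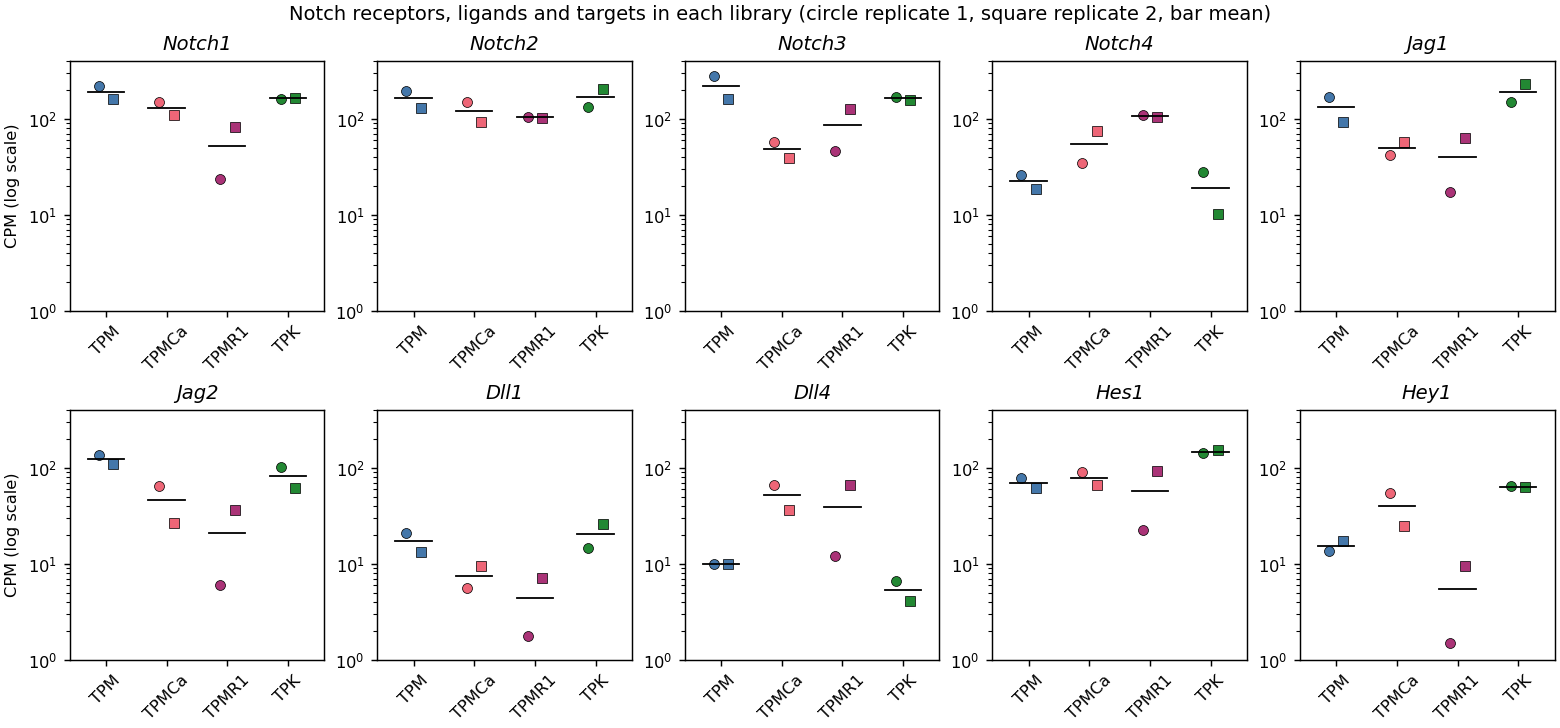
CPM of the 10 members in each library on a log axis, by model, with circles for replicate 1, squares for replicate 2 and a bar at the mean. Notch4 and Dll4 were higher in TPMCa and TPMR1 than in TPM and TPK in every library. Notch1, Notch3, Jag1 and Dll1 were lower there in every library. The share of all genes separated in this way is not given here, so the pattern is not shown to be particular to the members. The low circle of TPMR1 recurs in 6 panels.

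Among the ligands, the Jagged genes and Dll1 were at lower levels in the PI3K-edited models than in TPM, and Dll4 was at higher levels. Jag1 (chromosome 2 from 137081456 to 137116644, minus strand), a Jagged ligand of many epithelia, was at 170.02 and 93.3 CPM in TPM, 41.7 and 58.05 CPM in TPMCa, 17.3 and 63.5 CPM in TPMR1, and 149.8 and 230.1 CPM in TPK. No library of TPM or TPK overlapped those of TPMCa and TPMR1. TPK was 4.23-fold higher than the PI3K-edited mean (log2 fold change 2.08, SE 0.516, edgeR adjusted p = 0.0422), and TPM was 2.93-fold higher without passing the threshold (edgeR adjusted p = 0.125).

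Jag2 (chromosome 12 from 112907819 to 112929776, minus strand) was at 136 and 110.3 CPM in TPM, 65.3 and 26.5 CPM in TPMCa, 6.08 and 36.5 CPM in TPMR1, and 104 and 61.6 CPM in TPK. Both TPM libraries were above all others, whereas the lower TPK library fell below the higher TPMCa one. The log2 fold change of TPMR1 against TPM was -2.53 (SE 0.852, edgeR adjusted p = 0.139), and leaving out TPMR1 replicate 1 or replicate 2 gave -1.75 or -4.34 (edgeR adjusted p = 0.178 and 0.0180). Dll1 (chromosome 17 from 15367354 to 15376872, minus strand), a Delta ligand best known from somite and neural development, was at 21.1 and 13.3 CPM in TPM, 5.6998 and 9.46 CPM in TPMCa, 1.78 and 7.17 CPM in TPMR1, and 14.6 and 26.1 CPM in TPK. TPM and TPK were again the high models, with no overlap. TPK exceeded the PI3K-edited mean by a log2 fold change of 1.80 (SE 0.599, edgeR adjusted p = 0.0915), which was 1.46 without TPMR1 replicate 1 and 2.47 without replicate 2 (edgeR adjusted p = 0.0724 and 0.0194).

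Dll4 (chromosome 2 from 119325784 to 119335962, plus strand) was at 9.99 and 10.1 CPM in TPM, 67.3 and 36.5 CPM in TPMCa, 12.2 and 66.3 CPM in TPMR1, and 6.74 and 4.09 CPM in TPK. Every TPMCa and TPMR1 library was above every TPM and TPK library, although replicate 1 of TPMR1 only narrowly so. Against the PI3K-edited mean, TPK was 8.31-fold lower (log2 fold change -3.05, SE 0.768, edgeR adjusted p = 0.0442) and TPM 4.48-fold lower (log2 fold change -2.16, edgeR adjusted p = 0.127). Dll4 in TPMR1 was 3.89-fold higher than in TPM (log2 fold change 1.96, edgeR adjusted p = 0.195), a difference that was 2.72 on the log2 scale without replicate 1 of TPMR1 (edgeR adjusted p = 0.0367) and 0.27 without replicate 2 (edgeR adjusted p = 0.778).

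The stretches before the first annotated start of the 3 members past the threshold are shown because these genes differed together between TPK and the PI3K-edited models, Notch4 and Dll4 in one direction and Jag1 in the other. They are from the RefSeq promoter table of GRCm38.p6, which held windows for 8 of the 10 members, Hes1 and Hey1 having no entry. Capitals mark GGGCGG, the core of the GC box bound by the SP family of factors, on either strand. The regions are Notch4 at chr17:34564045-34564267 on the plus strand, Jag1 at chr2:137116645-137116770 on the minus strand, and Dll4 at chr2:119325534-119325783 on the plus strand.
Notch4: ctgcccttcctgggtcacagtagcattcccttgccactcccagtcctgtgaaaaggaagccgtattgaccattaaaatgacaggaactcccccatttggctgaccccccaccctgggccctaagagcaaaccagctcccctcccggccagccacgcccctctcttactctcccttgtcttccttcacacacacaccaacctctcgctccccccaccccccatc
Jag1: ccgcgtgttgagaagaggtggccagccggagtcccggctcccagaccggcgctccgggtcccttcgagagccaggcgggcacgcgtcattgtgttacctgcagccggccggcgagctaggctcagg
Dll4: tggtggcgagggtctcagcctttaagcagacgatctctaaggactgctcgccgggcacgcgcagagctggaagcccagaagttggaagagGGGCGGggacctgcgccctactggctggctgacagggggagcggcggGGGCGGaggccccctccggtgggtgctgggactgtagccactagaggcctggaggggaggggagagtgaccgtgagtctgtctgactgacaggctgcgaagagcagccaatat
Dll4 held 2 GC boxes and Notch4 and Jag1 held none, while 32.7% of 32851 promoters had at least 1 in the 250 bases before their start. Among the other members, Notch1, Notch2 and Jag2 held 5 each, Notch3 held 4 and Dll1 none, so that 5 of the 8 members had one. For these other members the 250 bases of the promoter table were searched, which need not lie before the first annotated start. The start used for Notch1 was 12841 bases from the annotated gene start, and that of a Dll1 window 1049 bases. GC content was 59.2% in the Notch4 stretch of 223 bases, 70.6% in the Jag1 stretch of 126 bases and 65.6% in the Dll4 stretch of 250 bases. Over the full 250 bases of the promoter table it was 58.4% for Notch4, 57.2% for Jag1 and 65.6% for Dll4, so the order depends on the stretch taken. The letters TGGGAA on either strand, the core bound by RBPJ, were in 0 of the 9 windows of 300 bases of the 8 members, against 25.6% of all promoters. The TATA box core, searched as TATAAA, was in 0 of the 9 stretches of 250 bases, against 12.4% of all promoters. These letters say nothing of sites outside the windows, and the GC box and TATA box were added after the sequences had been seen.

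The targets Hes1 and Hey1 had their highest levels in the TPK libraries. Hes1 (chromosome 16 from 30064384 to 30067796, plus strand), a repressor that also answers to signals other than Notch, was at 78.4 and 61.5 CPM in TPM, 91.6 and 65.9 CPM in TPMCa, 22.5 and 93.8 CPM in TPMR1, and 142 and 154 CPM in TPK. Only the TPK libraries stood clear of the rest, and the lowest and the third highest of the 8 values both came from TPMR1. TPK was 2.19-fold higher than the PI3K-edited mean in Hes1 (log2 fold change 1.13, SE 0.502, edgeR adjusted p = 0.176) and 2.12-fold higher than TPM (log2 fold change 1.08, edgeR adjusted p = 0.740). The first difference was 0.79 without TPMR1 replicate 1 and 1.82 without replicate 2 (edgeR adjusted p = 0.0734 and 0.00686).

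Hey1 (chromosome 3 from 8663359 to 8667256, minus strand), a repressor active in vessels and many other tissues, had the widest range of the members. It was at 13.7 and 17.3 CPM in TPM, 54.97 and 24.8 CPM in TPMCa, 1.51 and 9.45 CPM in TPMR1, and 65.2 and 63.2 CPM in TPK. The models did not overlap and ran in the order TPK, TPMCa, TPM and TPMR1, so that TPMCa and TPMR1 lay on opposite sides of TPM. TPMR1 was below TPMCa by a log2 fold change of -2.87 (SE 0.838, unadjusted p = 0.0118 and adjusted p = 0.376, edgeR). This was -2.07 without replicate 1 of TPMR1 (edgeR adjusted p = 0.606) and -4.72 without its replicate 2 (edgeR adjusted p = 0.0176). TPK exceeded TPM by a log2 fold change of 2.05 (SE 0.808, unadjusted p = 0.0404 and adjusted p = 0.691, edgeR). Neighbors in this order were not separated after adjustment: the edgeR adjusted p was 0.605 for TPK against TPMCa, 0.353 for TPMCa against TPM and 0.315 for TPMR1 against TPM. The highest library was 43.1 times the lowest in Hey1, and the other members other than Notch2 ranged from 6.85 times in Hes1 to 22.3 times in Jag2.

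Levels between genes can be compared only per length, and CPM per kilobase of annotated exon was used for this. The receptors summed to 71.8 and 45.7 CPM per kb in TPM, 36.1 and 30.5 in TPMCa, 30.9 and 43.8 in TPMR1, and 48.03 and 51.6 in TPK. Notch3 led the receptors in all TPM and TPK libraries, with 38.1 to 48.2% of their summed level, and Notch4 held only 2.47 to 7.17% there. In TPMCa and TPMR1, Notch4 held 12.1 to 44.4% and Notch3 15.9 to 35.5%. The mean level per length of Notch1 in TPM was 13.4 ± 3.04 CPM per kb (SD, n = 2) and that of Notch2 15.3 ± 4.35 (SD, n = 2), within the spread of each other. With the longest coding transcript as length, an alternative added after the data had been seen, Notch1 was at 20.1 CPM per kb and Notch2 at 15.7, so the order of this pair depends on the gene model, while Notch3 still led in each TPM and TPK library.

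The ligands summed to 56.3 and 37.6 CPM per kb in TPM, 35.3 and 25.5 in TPMCa, 7.42 and 35.04 in TPMR1, and 45.8 and 55.6 in TPK. Dll4 held 1.91 to 6.98% of the summed ligand level in TPM and TPK and 37.1 to 49.4% in TPMCa and TPMR1. Jag1 held 42.5 to 71.05% in TPM and TPK. With the longest coding transcript as length, Jag1 held 37.2% and Jag2 48.4% in TPM replicate 2, so the leading ligand of that library depends on the gene model. Replicate 1 of TPMR1, whose summed ligand level was the lowest of all, still had 42.5% of it in Dll4. Dll1 stayed the minor ligand in TPMCa and TPMR1, with 3.82 to 8.80% of the level per length.

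**Figure D2:**
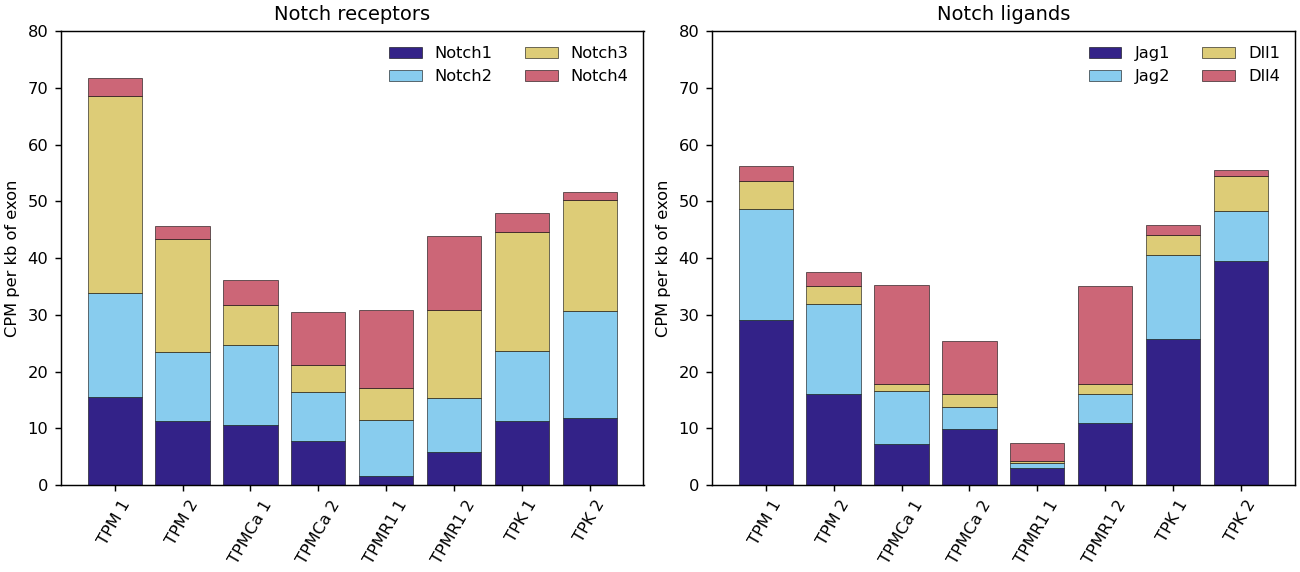
Stacked bars of the receptor levels (left) and ligand levels (right) in CPM per kb of annotated exon, a bar per library. The Notch4 and Dll4 segments are small in TPM and TPK, where Dll4 is at most 6.98% of the ligand level, and large in TPMCa and TPMR1, where it is at least 37.1%.

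TPMCa, with the Pik3ca cDNA, was compared with TPM, the Myc model without it. Their epithelial and endothelial marker levels also differed, and the part of cell content in the differences below was not tested. Notch3 was 4.55-fold lower and Dll4 5.15-fold higher in TPMCa, yet 0 of the 10 members passed an adjusted p under 0.05 in edgeR, where 3.48% of all genes did. An unadjusted p under 0.05 was reached by 2 members, Notch3 and Dll4, against 22.1% of all genes, and DESeq2 called the same 2 at an adjusted p under 0.05, against 16.1%. The 2 TPMCa libraries were both above TPM in 3 members and both below in 5, against 29.1% and 32.2% of all genes. The median log2 fold change of the members was -0.49, and that of all genes -0.01. The study used DESeq2 with a log2 fold change beyond 1 and p under 0.05 for TPM or TPK against TPMCa and TPMR1. With these cutoffs on unadjusted edgeR p values, here called the threshold of the study, 2 members passed, against 18.9% of genes. A fit of TPM and TPMCa alone also called Notch3 and Dll4. Its share of all genes called is not given here, so these calls cannot be read as particular to the members. The same 2 members were called by edgeR when TPMR1 replicate 1 or replicate 2 was left out, where 9.86% and 9.67% of genes were called.

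TPMR1, with the Pik3r1 sgRNA, was compared with the same TPM libraries, and under the same limit. Notch1, Notch2, Notch3, Jag1, Jag2, Dll1 and Hey1 lay below TPM in both TPMR1 libraries and Notch4 and Dll4 above. That is 7 members below and 2 above, against 28.4% and 24.5% of all genes. In edgeR 0 of the 10 members were called, where 5.58% of genes were, and 7 had an unadjusted p under 0.05, against 23.1%. DESeq2 called 3, Notch1, Notch4 and Jag2, against 17.5%. The threshold of the study was passed by 7, against 20.1%. The median log2 fold change was -1.43 for the members and 0.03 for all genes. Without replicate 1 of TPMR1, edgeR called 1 member, Dll4, and without replicate 2 it called 7, Notch1, Notch3, Jag1, Jag2, Dll1, Hes1 and Hey1, all lower in TPMR1. These refits called 4.36% and 12.3% of all genes.

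Between TPMR1 and TPMCa, and between TPK and TPM, 0 members were called in edgeR, and 0% of all genes were. Here the unadjusted p was under 0.05 for Hey1 alone in each comparison, against 11.8% and 7.17% of all genes. DESeq2 called Hey1 between TPMR1 and TPMCa, where it called 4.86% of genes, and 0 members between TPK and TPM, where it called 1.52%. Hey1 also passed the threshold of the study in each, against 10.5% and 5.28% of genes. The separated members were 1 above and 2 below in TPMR1 against TPMCa (18.8% and 17.7% of all genes), and 2 above and 2 below in TPK against TPM (24.4% and 23.5%). The last pair were Hes1 and Hey1 above, and Jag2 and Dll4 below.

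TPM was next set against the PI3K-edited mean, a grouping used in the study. Notch1, Notch3, Jag1, Jag2 and Dll1 were above all 4 PI3K-edited libraries in both TPM libraries, and Notch4 and Dll4 below. These 5 and 2 members compare with 19.4% and 15.5% of all genes. In edgeR 0 members were called, where 8.89% of genes were. The 7 separated members all had an unadjusted p under 0.05, against 24.9% of genes, and DESeq2 called 4 of them, Notch3, Notch4, Jag2 and Dll4, against 18.9%. The same 7 passed the threshold of the study, against 20%. The median log2 fold change was 0.87 for the members and -0.02 for all genes. Without replicate 1 of TPMR1, edgeR called Notch3, higher in TPM, and Dll4, lower in TPM (edgeR adjusted p = 0.0353 and 0.0147), and without its replicate 2 it called 5 members, Notch1, Notch3, Jag1, Jag2 and Dll1, where these refits called 11.8% and 12.3% of genes.

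Of the 6 comparisons, edgeR called members in TPK against the same mean alone. Jag1 was higher and Notch4 and Dll4 were lower in TPK, 3 of 10 members, where 14.4% of all genes were called in edgeR, 10.3% higher and 4.06% lower. The 6 members with an unadjusted p under 0.05 were Notch3, Notch4, Jag1, Dll1, Dll4 and Hey1, against 32% of genes, and DESeq2 called the same 6, against 27.3%. Notch1, Notch3, Jag1, Dll1, Hes1 and Hey1 lay above all 4 PI3K-edited libraries and Notch4 and Dll4 below, 6 and 2 members against 22.4% and 18.5% of genes. The threshold of the study was passed by the 6 members with an unadjusted p under 0.05, against 25.2% of genes. The median log2 fold change was 1.24 for the members and -0.002 for all genes. The 3 calls were lost when only TPK, TPMCa and TPMR1 were fitted, a fit whose share of all genes called is not given here. Leaving out replicate 1 of TPMR1 gave 3 calls, Jag1, Dll4 and Hey1, leaving out its replicate 2 gave 8, and leaving out any other library gave 0. Of all genes, the first 2 refits called 18.7% and 18.1%, and the other 6 called between 3.23% and 8.38%. Without replicate 1 of TPMR1 the log2 fold change was 1.76 for Jag1, -3.43 for Dll4 and -1.99 for Notch4 (edgeR adjusted p = 0.0246, 0.00586 and 0.0552). Over all alternatives the adjusted p ran from 0.00441 to 0.254 for Jag1, from 0.00115 to 0.237 for Notch4 and from 1.27e-04 to 0.272 for Dll4. The direct differences of TPK from each PI3K-edited model were added after the levels had been seen. Against TPMR1, edgeR called 2 members, Notch4 (log2 fold change -2.50, adjusted p = 0.0426) and Hey1 (3.56, adjusted p = 0.0484), where 10.3% of genes were called. Without replicate 1 of TPMR1 the edgeR adjusted p was 0.0730 for Notch4 and 0.0412 for Hey1, and without replicate 2 it was 0.0498 and 0.00745. Against TPMCa the lowest edgeR adjusted p of a member was 0.0661, for Dll4.

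Asked whether the 4 models differed at all, edgeR called 0 of the 10 members, where 7.32% of genes were called. An unadjusted p under 0.05 was found for 5, Notch3, Notch4, Jag1, Dll4 and Hey1, against 27.9%, and DESeq2 called the same 5, against 29.8%.

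**Figure D3:**
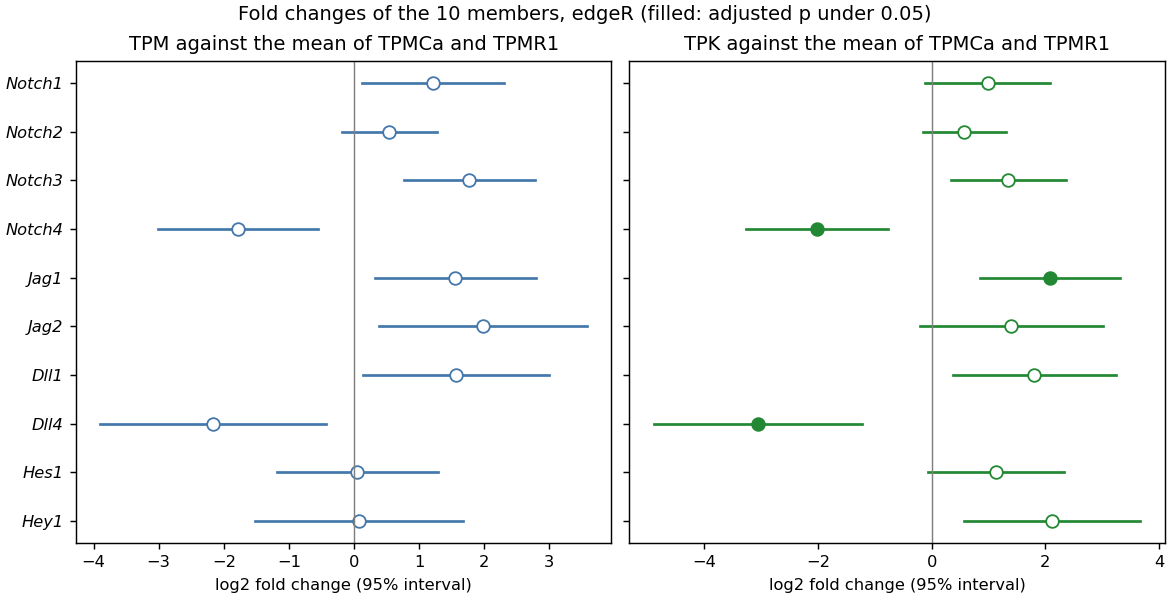
Log2 fold changes of the 10 members with 95% intervals, for TPM (left) and TPK (right) against the mean of TPMCa and TPMR1, filled where the adjusted p from edgeR was under 0.05. Notch4 and Dll4 lie left of 0 in both panels, and the filled points are Jag1 at 2.08, Notch4 at -2.01 and Dll4 at -3.05 in TPK.

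Markers of endothelial cells were read beside Notch4 and Dll4. The 10 endothelial markers (Pecam1, Cdh5, Kdr, Tek, Tie1, Emcn, Cldn5, Erg, Vwf and Egfl7) summed to 183 and 173 CPM in TPM, 571 and 715 CPM in TPMCa, 228 and 783 CPM in TPMR1, and 237 and 77.7 CPM in TPK. None of the 10 was at 0 in any library. In edgeR 0 of the 10 endothelial markers were called in TPK against the PI3K-edited mean, 8 had an unadjusted p under 0.05, 7 of them lower and 1 higher, and DESeq2 called 7, where 14.4%, 32% and 27.3% of all genes met these rules. Their median log2 fold change there was -1.66.

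The 3 libraries with the highest sums, both of TPMCa and replicate 2 of TPMR1, were those with the highest Dll4. The ratio of Dll4 to Cdh5, which encodes VE-cadherin, was 0.259 and 0.342 in TPM, 0.405 and 0.196 in TPMCa, 0.214 and 0.2598 in TPMR1, and 0.1501 and 0.304 in TPK. The models overlapped in this ratio, which was chosen after the levels had been seen, and also in the ratio of Dll4 to the sum of the 10 markers. For Notch4 the ratio to Cdh5 was 0.679 and 0.625 in TPM, 0.212 and 0.402 in TPMCa, 1.95 and 0.4095 in TPMR1, and 0.618 and 0.765 in TPK. Replicate 1 of TPMR1 stood apart, with the highest Notch4 level of all libraries beside a low endothelial sum, and without it TPMCa and TPMR1 lay below TPM and TPK in the ratio to Cdh5. Over the sum of the 10 markers, Notch4 was at 0.143 and 0.107 in TPM, 0.0615 and 0.105 in TPMCa, 0.485 and 0.133 in TPMR1, and 0.117 and 0.132 in TPK. Here TPMR1 replicate 2 lay among the TPM and TPK libraries, so the separation seen with Cdh5 was not found with the sum. The part of endothelial content in the differences of Notch4 and Dll4 was not tested.

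**Figure D4:**
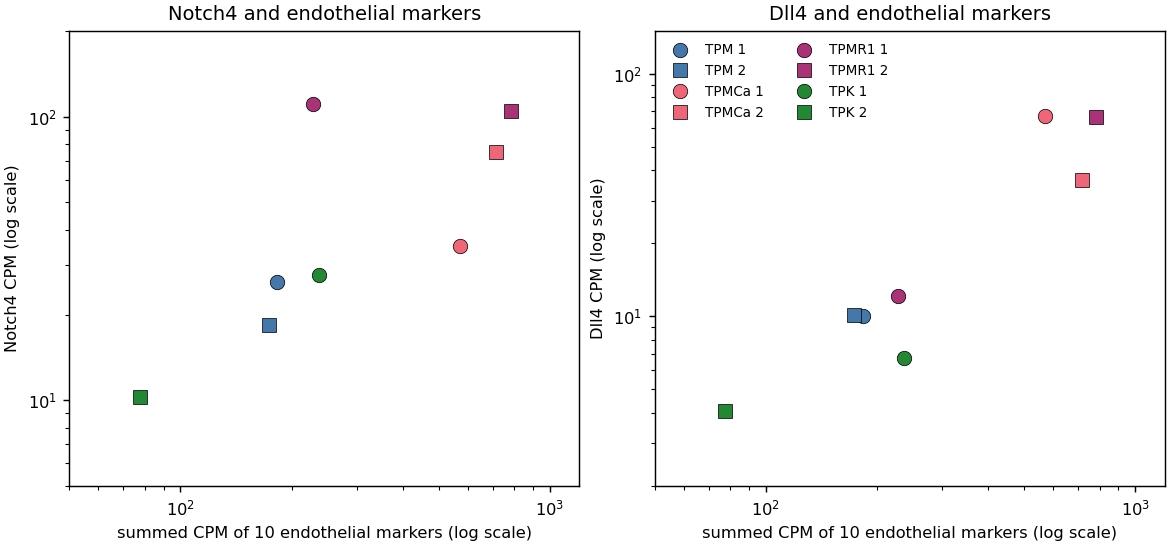
Notch4 (left) and Dll4 (right) CPM against the summed CPM of 10 endothelial markers, a point per library on log axes, circles for replicate 1 and squares for replicate 2. The 3 libraries with the highest sums also hold the 3 highest Dll4 levels, while the Notch4 point of TPMR1 replicate 1 lies at 110.5 CPM beside a sum of 228 CPM.

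The other marker lists were read beside the remaining members. The mural list (Pdgfrb, Rgs5, Cspg4, Des, Acta2, Tagln, Myh11, Cnn1, Kcnj8 and Abcc9), whose cells use Notch3, summed to 355 and 902 CPM in TPM, 578 and 417 CPM in TPMCa, 139 and 1099 CPM in TPMR1, and 499 and 386 CPM in TPK. The models overlapped in this sum, and the part of mural content in the Notch3 levels was not tested. Abcc9 was the single mural gene called by edgeR, higher in TPMR1 than in TPM and lower in TPK and in TPM than in the PI3K-edited mean. The 7 general and 6 squamous epithelial markers were all called higher in TPK than in the PI3K-edited mean, 13 of 13, with median log2 fold changes of 8.06 and 12.43. All 13 were likewise called higher in TPM. Notch1, Notch3, Jag1, Jag2 and Dll1 had their higher levels in the models with these markers, and the part of epithelial content in them was not tested. Fibroblast markers (Col1a1, Col1a2, Col3a1, Dcn, Lum, Pdgfra and Dpt) summed to between 887 and 16672 CPM, macrophage markers (Lyz2, Adgre1, Csf1r, Cd68, C1qa, C1qb and Mrc1) to between 314 and 4612 CPM, and neutrophil markers (S100a8, S100a9, Csf3r, Cxcr2 and Retnlg) to between 14.4 and 2187 CPM. Replicate 1 of TPMR1 was the lowest library in the mural, fibroblast, macrophage, neutrophil and both epithelial lists. None of the fibroblast, macrophage and neutrophil markers was called by edgeR in any of the 6 comparisons. At an unadjusted p under 0.05, 6 of 7 macrophage markers were higher in TPMCa than in TPM and 6 were lower in TPMR1 than in TPMCa, and DESeq2 called 5 and 4 of them. Of all genes, 22.1% and 11.8% reached this unadjusted p in these comparisons in either direction, and DESeq2 called 16.1% and 4.86%.

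Another 49 genes of the pathway were read beside the members, and 44 of them were tested, Dll3, Rbpjl, Hes2, Hes3 and Hes5 having too few counts. In TPK against the PI3K-edited mean, 7 of the 44 passed the threshold, or 15.9%, near the 14.4% of all genes. Dlk2, Dtx3l, Maml2, Neurl1b, Psenen and Rfng were higher and Dlk1 was lower. TPM against that mean had 3 calls, Dlk2, Dtx3l and Rfng, all higher, or 6.82% against 8.89% of all genes. Dlk2 was lower in TPMCa than in TPM, and Dlk2 and Dtx3l were lower in TPMR1 than in TPM, 2.27% and 4.55% of the 44 against 3.48% and 5.58% of all genes. Between TPMR1 and TPMCa and between TPK and TPM, edgeR called 0 of the 44, where 3 and 2 genes had an unadjusted p under 0.05, against 11.8% and 7.17% of all genes, and DESeq2 called 1 gene in each, against 4.86% and 1.52%. Over the 4 models, Dlk1, Dlk2 and Dtx3l were called, 6.82% of the 44 against 7.32% of all genes.

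The calls fell in several steps of the pathway. Dlk1 and Dlk2 are noncanonical ligands of the Delta-like type that lack the domain by which Delta ligands activate Notch. Dlk1 was at 6.56 and 13.96 CPM in TPM, 319.6 and 76.7 CPM in TPMCa, 63.2 and 555 CPM in TPMR1, and 0.229 and 0.461 CPM in TPK. TPK was thus near the floor, while the TPMCa and TPMR1 libraries were above all others (log2 fold change of TPK -9.48, SE 1.53, edgeR adjusted p = 0.0116). Dlk2 ran the other way, at 18.5 and 9.55 CPM in TPM, 0.697 and 0.278 CPM in TPMCa, 0.271 and 0.5002 CPM in TPMR1, and 14.6 and 11.6 CPM in TPK. TPM was 32.2-fold and TPK 30.1-fold higher than the PI3K-edited mean (edgeR adjusted p = 0.00423 and 0.00388). Dtx3l, the partner of PARP9 in a ubiquitin ligase of the Deltex family, was at 122 and 106 CPM in TPM, 6.903 and 21.2 CPM in TPMCa, 19.6 and 12.1 CPM in TPMR1, and 128 and 256 CPM in TPK. It was 12.9-fold higher in TPK and 7.62-fold higher in TPM than in the PI3K-edited mean (edgeR adjusted p = 0.00603 and 0.0147). Dtx3l is also an interferon-induced gene.

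The remaining called genes act at further steps of the pathway. Rfng, a Fringe enzyme that adds sugars to Notch, lay between 76.04 and 106 CPM in TPM and TPK and between 30.97 and 47.6 CPM in TPMCa and TPMR1. Psenen, a subunit of the gamma-secretase that makes the last cut, lay between 83.7 and 104 CPM in TPK and between 42.4 and 59.8 CPM in TPMCa and TPMR1 (log2 fold change 0.98, edgeR adjusted p = 0.0380). Maml2, a coactivator in the nuclear complex, was at 35.4 and 61.8 CPM in TPK and between 1.47 and 9.63 CPM in TPMCa and TPMR1. Neurl1b, a ubiquitin ligase that helps ligands to be taken up, was at 51.2 and 72.1 CPM in TPK and between 6.65 and 23.4 CPM in TPMCa and TPMR1. In TPM, Psenen was at 82.4 and 65.4 CPM, Maml2 at 18.96 and 13.2 CPM, and Neurl1b at 35.5 and 8.12 CPM. Among the 5 other targets with enough counts, Hes6, Hes7, Hey2, Heyl and Nrarp, edgeR called 0 in any comparison. DESeq2 called 1 of them each in TPMCa and TPMR1 against TPM, in TPM and TPK against the PI3K-edited mean, and over the 4 models. It called between 16.1% and 29.8% of all genes there. Nrarp, a feedback inhibitor of Notch named here after its values were seen, was at 149 and 93.6 CPM in TPM, 6.78 and 27.3 CPM in TPMCa, 4.61 and 26.5 CPM in TPMR1, and 89.04 and 97.6 CPM in TPK.

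**Figure D5:**
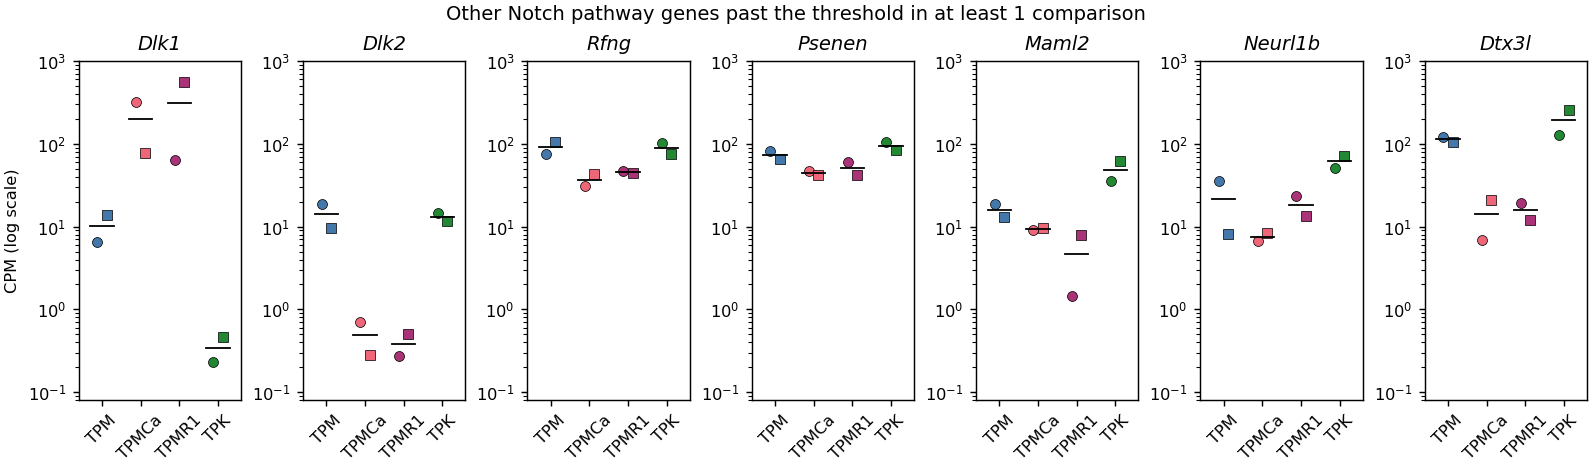
CPM on a log axis of the 7 other pathway genes called by edgeR in at least 1 comparison, by model, with circles for replicate 1, squares for replicate 2 and a bar at the mean. Dlk1 spans from 0.229 CPM in TPK to 555 CPM in TPMR1, and Dlk2 is under 1 CPM in every TPMCa and TPMR1 library.

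For each member the 2 genes outside the pathway lists with the most similar profile were read from 10373 genes, by the Pearson correlation of log2 CPM over the 8 libraries. They share libraries, depth and the contrast of models with the member, so the coefficients are a description only. Among the receptors, the nearest genes were Kctd15 and Ephb3 for Notch1, Dnajb6 and Cab39 for Notch2, Actn4 and Mfap3l for Notch3, and Ing5 and Crtap for Notch4. Among the ligands they were Ripk2 and Rttn for Jag1, Asprv1 and Egln3 for Jag2, Pld1 and Anxa3 for Dll1, and Orc2 and Blm for Dll4. The targets had Tm4sf1 and Il4ra for Hes1 and Sh3glb1 and Tspan13 for Hey1. The coefficients ran from 0.961 for Tspan13 with Hey1 to 0.996 for Orc2 with Dll4.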

How the data were processed

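RNA of 8 samples, 2 per model, was sequenced as polyA libraries. The labels call them organoids from tumors and the study's methods tumor tissue, and the files do not settle which. Reads were mapped to mm10 with STAR by the authors, who deposited raw counts per gene symbol, and a table of signal values, the counts divided by DESeq2 size factors. The counter, its annotation and the use of strand are not given in the sources used here. Exons of Notch1, Notch2, Notch3, Dll1 and Dll4 overlap other annotated genes, so reads could be shared. Of the genes with overlapping exons, Gm14207 over Dll4 alone is among those counted, with 137 counts in total. The count columns name TPM as TPMS. Counts were used for every test, and the authors' signal values only to rescale levels per length.

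Counts were fitted in edgeR 4.0.16 (R 4.3.3, limma 3.58.1) with TMM factors, filterByExpr and the quasi-likelihood test, with 1 fit for all 8 libraries (common dispersion 0.269). The Benjamini-Hochberg adjustment ran over 15875 genes. A permutation test of 2 against 2 libraries cannot reach 0.05, so none was run. DESeq2 1.42.0 was an alternative. Coordinates and exon lengths are from GENCODE M21 on GRCm38. The members and lists were chosen with earlier results of these data known. Named genes were the 10 members, other pathway genes past the threshold, markers, and the 2 most similar genes per member. Results on some engineered genes are not reported here.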

Additional observations from a re-analysis of the deposited data

Results flagged for a closer look

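Dll4 and Hey1 are listed because their libraries lay on opposite sides of both TPM libraries in different models. Dll4 was below TPM in TPK and above it in TPMCa and TPMR1. The direct difference of TPK was -3.26 on the log2 scale against TPMCa (SE 0.821, edgeR adjusted p = 0.0661) and -2.85 against TPMR1 (SE 0.808, edgeR adjusted p = 0.0701), the latter -3.61 and -1.16 without TPMR1 replicate 1 and replicate 2 (edgeR adjusted p = 0.0155 and 0.169). Hey1 was below TPM in TPMR1 and above it in TPMCa and TPK. Its direct difference was -2.87 for TPMR1 against TPMCa (SE 0.838, edgeR adjusted p = 0.376), or -2.07 and -4.72 without TPMR1 replicate 1 and replicate 2. For TPK against TPMR1 it was 3.56 (SE 0.862, edgeR adjusted p = 0.0484), or 2.76 and 5.41 without these libraries. Of these 4 differences the last alone passed the threshold with all libraries.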

How the results depend on the processing

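Of 900 refitted log2 fold changes of members, 805 kept their direction and side of the threshold, 27 lost a call, 45 gained one and 23 reversed. With DESeq2 the members called were 2 in TPMCa against TPM, 3 in TPMR1 against TPM, 1 in TPMR1 against TPMCa, 4 in TPM against the PI3K-edited mean, 6 in TPK against that mean and 5 over the 4 models. With DESeq2 the other pathway genes called were 6, 6, 1 and 1 in the pairwise comparisons TPMCa against TPM, TPMR1 against TPM, TPMR1 against TPMCa and TPK against TPM, then 8 and 13 against the mean for TPM and TPK, and 12 over the 4 models. In the same order DESeq2 called 16.1%, 17.5%, 4.86% and 1.52% of all genes, then 18.9% and 27.3%, and 29.8% over the 4 models. A fit of only the models compared called 2 members in TPMCa against TPM and 0 in TPK against the mean. With no filter on low counts, TPM against the mean called 1. The shares of all genes called in these refits are not given here, so the counts cannot be read as particular to the members. The threshold of the study was an unadjusted p under 0.05 with a log2 fold change beyond 1. Taken with edgeR rather than DESeq2 p values, it held for 2, 7, 1, 1, 7 and 6 members in the order of the comparisons. The cause of these shifts was not tested.

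The replicate numbers do not pair the samples: the 6 correlations of replicate deviations between models lay between -0.0687 and -0.00819. With the replicate number as a block, 0 members were called in TPK against the mean. In that fit 1 other pathway gene was called in TPMR1 against TPM and 1 over the 4 models. The share of all genes called with the block is not given here, so these counts cannot be read as particular to the pathway.

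Leaving out each library in turn gave 0 to 2 members called in TPMCa against TPM, 0 to 7 in TPMR1 against TPM, 0 to 3 in TPMR1 against TPMCa, 0 in TPK against TPM, 0 to 5 and 0 to 8 in TPM and TPK against the mean, and 0 to 8 over the 4 models. For the other pathway genes these ranges were 0 to 5, 0 to 9, 0 to 5, 0, 1 to 9, 2 to 12 and 0 to 11. The share of all genes called also moved between these refits, except in TPK against TPM. Neither set of ranges can therefore be read as particular to the pathway. A lone library was assumed to vary like those of the other models.

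Values that changed sign without a library all missed the threshold in the fit of all libraries. Over the 8 omissions, Hes1 ran from -0.072 to 0.39 in TPMCa against TPM, from -1.64 to 0.43 in TPMR1 against TPM, from -1.81 to 0.25 in TPMR1 against TPMCa, and from -0.30 to 0.73 in TPM against the mean. Hey1 in TPM against the mean ran from -0.32 to 0.998. In TPMR1 against TPMCa, Notch2 ran from -0.53 to 0.13, Notch3 from -0.065 to 1.38, Jag1 from -1.53 to 0.35 and Dll4 from -2.09 to 0.36. In TPK against TPM, Notch1 ran from -0.43 to 0.018, Notch2 from -0.31 to 0.34, Notch3 from -0.77 to 0.011, Notch4 from -1.13 to 0.32 and Dll1 from -0.24 to 0.60. With library size alone Notch2 was at -0.068 there. Levels per length kept within 0.983 to 1.01 times under the size factors of the authors.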
